A study of Mus musculus with 24 samples.

Results

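RNA of 24 bladder tumors was examined for 7 genes of the Myc network, taken by name out of 53465 genes counted. They are Myc, Mycn and Mycl, their partner Max, and the Max-binding genes Mxd1, Mxd4 and Mxi1. The tumors came from 8 BURP lines, 3 tumors a line, and each line descended from 1 donor C57BL/6NTac mouse. Donors had drunk 0.1% BBN, a nitrosamine that causes bladder cancer, from 8 weeks of age and for at most 36 weeks. The tumors were then carried under the skin of C57BL/6NTac hosts of the donor's sex. The basal/squamous (Ba/Sq) group held 18 tumors of 6 lines, of which BURP-12BaSq, BURP-17BaSq and BURP-18BaSq had male donors. BURP-25BaSq, BURP-24BaSq and BURP-21BaSq had female donors. BURP-16SR, of the stroma-rich class, and BURP-19NE, of the neuroendocrine-like class, both came from male mice. No normal bladder and no treatment of the hosts is named in the labels. Tumors of 1 line share a donor, and p-values measured the spread between tumors, except where counts were summed per line. In comparisons with the Ba/Sq group that spread included differences between lines. The class of BURP-16SR or BURP-19NE cannot be told apart from its line.

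MYC, MYCN and MYCL are transcription factors with a basic helix-loop-helix leucine zipper, and they bind DNA only as a dimer with MAX. The dimer recognises the E-box, spelled CACGTG in its canonical form, and activates genes for ribosome assembly, metabolism and the cell cycle. MXD1, MXD4 and MXI1 compete for MAX and the same sites, and they recruit the SIN3 corepressor and histone deacetylases. MXD1 is known as a gene that differentiating cells, keratinocytes among them, switch on while MYC falls. MYC is expressed in most proliferating epithelia, MYCN is best known from neural and neuroendocrine tumors, and MYCL was first found amplified in small cell lung cancer.

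Levels are given as CPM, a gene's share of a library's counts scaled by TMM factors from edgeR, and levels between genes as CPM per kb of annotated exon. Total counts ranged from 9295708 to 25370320 per tumor, with a median of 17693147. By correlation over genes, 21 of 24 tumors lay nearest to their own line. C102-M3 of BURP-25BaSq lay nearest to BURP-12BaSq (0.9152, beside 0.913 with its own line) and C165-M30 of BURP-17BaSq to BURP-24BaSq (0.9255, beside 0.9251). In BURP-25BaSq the library C102-M1 correlated at 0.9683 with BURP-21BaSq and at 0.8925 with its own line, so that its label is in doubt. In C102-M30 of the same line, 61.9% of all counts fell on CT010467.1, a gene of the class rRNA. Results that rest on these 2 libraries are given with and without them. The tumors of BURP-19NE all carry the tag C80 in their names and those of BURP-25BaSq C102, and the labels do not say what the tag marks. The neuroendocrine label was checked against its markers. In BURP-19NE, Ncam1 averaged 309 ± 59.0 CPM (SD, n = 3), while Syp was at 0.424 ± 0.151 CPM, beside 0.425 ± 0.348 in Ba/Sq (n = 18). Neurod1 and Insm1 had 0 counts in all 3 tumors. The paper placed this line by a transcriptomic classifier, and its immunostaining found much synaptophysin, the protein of Syp. The values here are RNA of bulk tumors and were not set against protein.

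Promoters were read for the genes whose RNA is described here, since 2 of the 7 carry the letters that a MYC and MAX dimer binds. Sequences are from RefSeq on GRCm38.p6, 250 bases before to 50 after the annotated start, 5′ to 3′ on the gene's strand. Capitals mark CACGTG, which reads the same on both strands. Max is shown because the letters span its start in RefSeq, at chr12:76962199-76962498 on the minus strand. The gene positions given below are from GENCODE, which starts Max farther downstream, at 76962201, so that by GENCODE the letters lie before the start. Mxd4 is shown for a match farther upstream, at chr5:34187661-34187960 on the minus strand, and Mnt, a further MAX-binding repressor, for its match at chr11:74830674-74830973 on the plus strand. Mxd1, at chr6:86669110-86669409 on the minus strand, is shown as the member with the widest range of levels, and Nle1, at chr11:82908346-82908645 on the minus strand, as the ribosome assembly gene with the largest difference in BURP-19NE.
Max: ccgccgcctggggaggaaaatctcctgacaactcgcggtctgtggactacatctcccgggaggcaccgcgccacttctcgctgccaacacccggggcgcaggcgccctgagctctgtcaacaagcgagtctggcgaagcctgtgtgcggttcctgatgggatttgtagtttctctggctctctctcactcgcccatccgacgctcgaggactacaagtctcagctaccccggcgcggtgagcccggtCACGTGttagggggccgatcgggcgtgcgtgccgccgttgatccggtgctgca
Mxd4: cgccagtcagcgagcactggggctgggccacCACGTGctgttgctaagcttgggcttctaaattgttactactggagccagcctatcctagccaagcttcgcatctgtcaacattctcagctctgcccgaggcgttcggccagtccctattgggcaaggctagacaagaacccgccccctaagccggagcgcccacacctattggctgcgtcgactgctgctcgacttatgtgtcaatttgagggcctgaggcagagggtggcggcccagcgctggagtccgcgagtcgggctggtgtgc
Mnt: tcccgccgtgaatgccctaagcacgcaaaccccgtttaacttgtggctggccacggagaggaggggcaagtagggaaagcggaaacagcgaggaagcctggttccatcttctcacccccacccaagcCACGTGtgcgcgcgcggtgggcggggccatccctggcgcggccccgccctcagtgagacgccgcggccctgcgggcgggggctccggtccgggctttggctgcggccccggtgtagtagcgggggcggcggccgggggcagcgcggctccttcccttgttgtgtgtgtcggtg
Mxd1: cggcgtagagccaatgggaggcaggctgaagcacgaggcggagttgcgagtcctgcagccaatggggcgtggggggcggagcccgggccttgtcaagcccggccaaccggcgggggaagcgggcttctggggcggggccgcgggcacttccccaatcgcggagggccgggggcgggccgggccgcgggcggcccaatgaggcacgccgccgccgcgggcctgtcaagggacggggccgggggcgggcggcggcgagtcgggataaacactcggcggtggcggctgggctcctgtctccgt
Nle1: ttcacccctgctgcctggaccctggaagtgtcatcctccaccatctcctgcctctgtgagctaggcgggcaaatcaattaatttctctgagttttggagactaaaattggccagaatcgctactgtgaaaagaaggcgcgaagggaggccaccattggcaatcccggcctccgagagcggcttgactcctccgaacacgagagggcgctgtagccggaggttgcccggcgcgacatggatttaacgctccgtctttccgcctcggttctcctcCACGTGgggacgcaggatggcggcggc
In Max the letters begin 3 bases before the start, in Mxd4 219 bases before it and in Mnt 123 bases before it, whereas in Nle1 they begin 23 bases past it. The window of Mxd1 does not hold them, and neither do the windows of Mycn, Mycl or the 3 starts of Mxi1. The table matched 6 of the 7 genes, with 8 promoters, of which 2 (25%) held CACGTG. Of 32851 promoters in all, 2349 (7.15%) held it. Of 26 promoters of ribosome assembly genes listed as MYC targets 7 (26.9%) held it, as did 10 of 35 (28.6%) of metabolism and growth targets and 3 of 7 (42.9%) of the other MAX and MLX network genes, those of Mlx, Mlxipl and Mnt. None of 9 promoters of genes listed as repressed by MYC held it. A match describes the letters only and was not tested as a site.

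**Figure D1:**
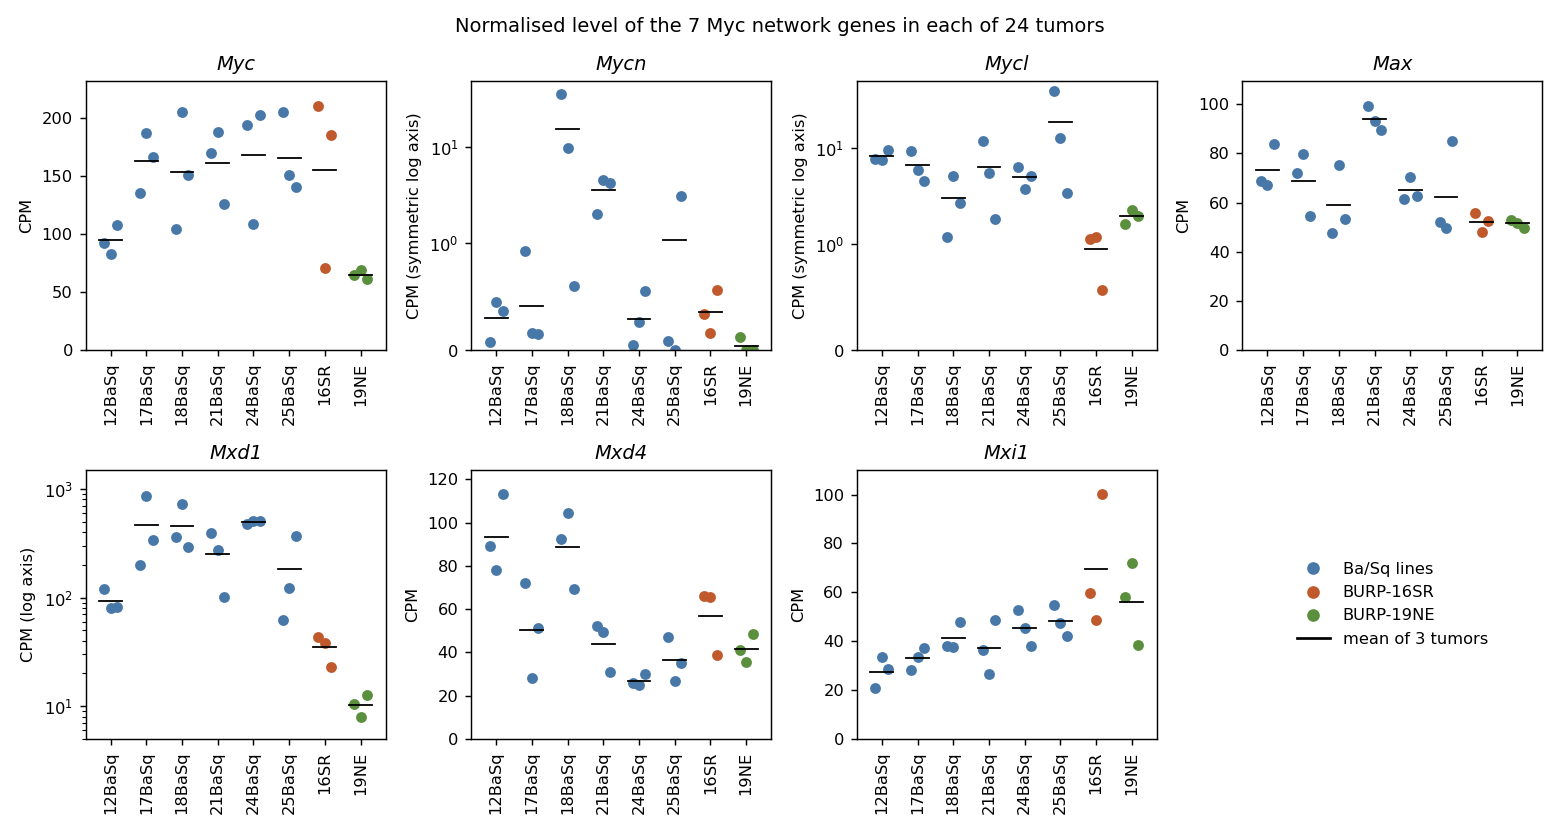
Level of each of the 7 genes in CPM (vertical axis, logarithmic for Mxd1 and symmetric logarithmic for Mycn and Mycl) in each tumor, by line, with a black bar at the mean of 3 tumors. Blue points are Ba/Sq lines, orange BURP-16SR and green BURP-19NE. The 3 tumors of BURP-19NE lie below every Ba/Sq tumor for Myc and Mxd1, and Mycn is above 9 CPM only in 2 tumors of BURP-18BaSq.

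Myc was the main Myc gene in every tumor. Myc lies on chromosome 15 from 61985391 to 61990374 (GRCm38, plus strand), with 2717 bp of exon. Per length it made up from 77.6% to 99.5% of the sum of the 3 Myc genes, with a median of 97.1%. The lowest share was in C148-M3 of BURP-18BaSq, where Mycn made up 21.8%, and in C102-M3 of BURP-25BaSq Mycl made up 11.4%. In the 18 Ba/Sq tumors Myc ranged from 83.1 CPM through a median of 151 to 205, and in BURP-16SR its levels were 210, 70.6 and 185 CPM. In BURP-19NE they were 64.7, 68.9 and 61.2 CPM. All 3 tumors of BURP-19NE lay below the lowest Ba/Sq tumor, and BURP-16SR spread from below the lowest to above the highest of them.

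Mycn, on chromosome 12 from 12936093 to 12941914 (minus strand, 3295 bp of exon), was near the limit of detection in most tumors. The smallest level read as present, 3 counts, was 0.11 to 1.28 CPM by library. The 3 tumors of BURP-18BaSq held 35.7, 9.78 and 0.603 CPM, from 273, 117 and 11 counts. The 3 of BURP-21BaSq held 2.01, 4.59 and 4.21 CPM, from 23, 120 and 115 counts. In BURP-25BaSq only the library in doubt, C102-M1, held a level of this size, 3.13 CPM from 56 counts, beside 0.0880 and 0 CPM in the other 2. BURP-19NE, the line named for its neuroendocrine class, had 3, 0 and 0 counts.

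Mycl, on chromosome 4 from 122995652 to 123002485 (plus strand, 4038 bp of exon), was low throughout but varied between lines. It ran from 1.18 to 39.2 CPM in Ba/Sq, with a median of 5.66, and the highest value, from 890 counts, was that of C102-M3. In BURP-16SR it was at 1.11, 1.17 and 0.561 CPM, from 13, 15 and 8 counts, and in BURP-19NE at 1.61, 2.26 and 1.95 CPM. No tumor of BURP-16SR reached the lowest Ba/Sq tumor, C148-M3, but its highest was all but level with it (1.173 and 1.175 CPM, the latter from 9 counts). BURP-19NE lay within the lower end of the Ba/Sq range.

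Max, on chromosome 12 from 76937269 to 76962201 (minus strand, 3598 bp of exon), was the steadiest of the 7 genes. It ranged from 47.7 through a median of 69.6 to 99.4 CPM in Ba/Sq, from 47.9 to 56.0 in BURP-16SR and from 49.7 to 52.9 in BURP-19NE. The groups overlapped. Per length Max was below Myc in all 24 tumors, at 0.192 to 0.617 of its level, and at 0.306 to 0.984 where the longest transcript of each gene gave the length. An unspliced gene model, Gm47218, overlaps Max on the same strand and took at most 197 counts, so that reads could be divided between them.

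Mxd1, on chromosome 6 from 86647042 to 86669161 (minus strand, 7072 bp of exon), had the widest range among the genes that every tumor expressed. Ba/Sq tumors ran from 62.0 through a median of 314 to 864 CPM. The levels were 43.2, 37.9 and 23.0 CPM in BURP-16SR and 10.4, 7.94 and 12.8 CPM in BURP-19NE. The 3 groups did not overlap, with every BURP-16SR tumor between the other two. An overlapping gene model on the same strand, Gm44292, took at most 1131 counts.

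Mxd4, on chromosome 5 from 34173883 to 34187720 (minus strand, 8483 bp of exon), ranged from 24.9 through a median of 50.3 to 113 CPM in Ba/Sq. It was at 66.1, 65.5 and 38.6 CPM in BURP-16SR and at 41.1, 35.7 and 48.3 CPM in BURP-19NE, within the Ba/Sq range in each of the 6 tumors. Mxi1, on chromosome 19 from 53310518 to 53375810 (plus strand, 6823 bp of exon), ranged from 20.8 through 37.7 to 54.9 CPM in Ba/Sq. BURP-16SR held 59.9, 48.7 and 100.1 CPM and BURP-19NE 58.1, 72.0 and 38.5 CPM, so that 2 of 3 tumors in each lay above every Ba/Sq tumor.

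The make-up of the 3 Mxd genes differed between the lines. Mxd1 made up from 39.2% to 93.7% of their sum per length in Ba/Sq tumors, from 14.5% to 26.9% in BURP-16SR and from 7.08% to 13.7% in BURP-19NE. In BURP-19NE Mxi1 held the largest share in 2 tumors, and over its 3 tumors that share ran from 43.0% to 66.4%. The ratio of Myc to Mxd1 per length was 16.2, 22.6 and 12.5 in BURP-19NE and 12.7, 4.85 and 20.9 in BURP-16SR. It ran from 0.553 to 3.45 in 17 Ba/Sq tumors and reached 8.59 in C102-M3, above 1 tumor of BURP-16SR. Against the sum of the 3 Mxd genes the ratio of the 3 Myc genes was 1.67 ± 0.0674 (SD, n = 3) in BURP-19NE and 1.27 ± 0.769 (n = 18) in Ba/Sq, where it ran from 0.501 to 3.80 and enclosed all 3 values of BURP-19NE. These ratios are descriptions and were not tested.

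**Figure D2:**
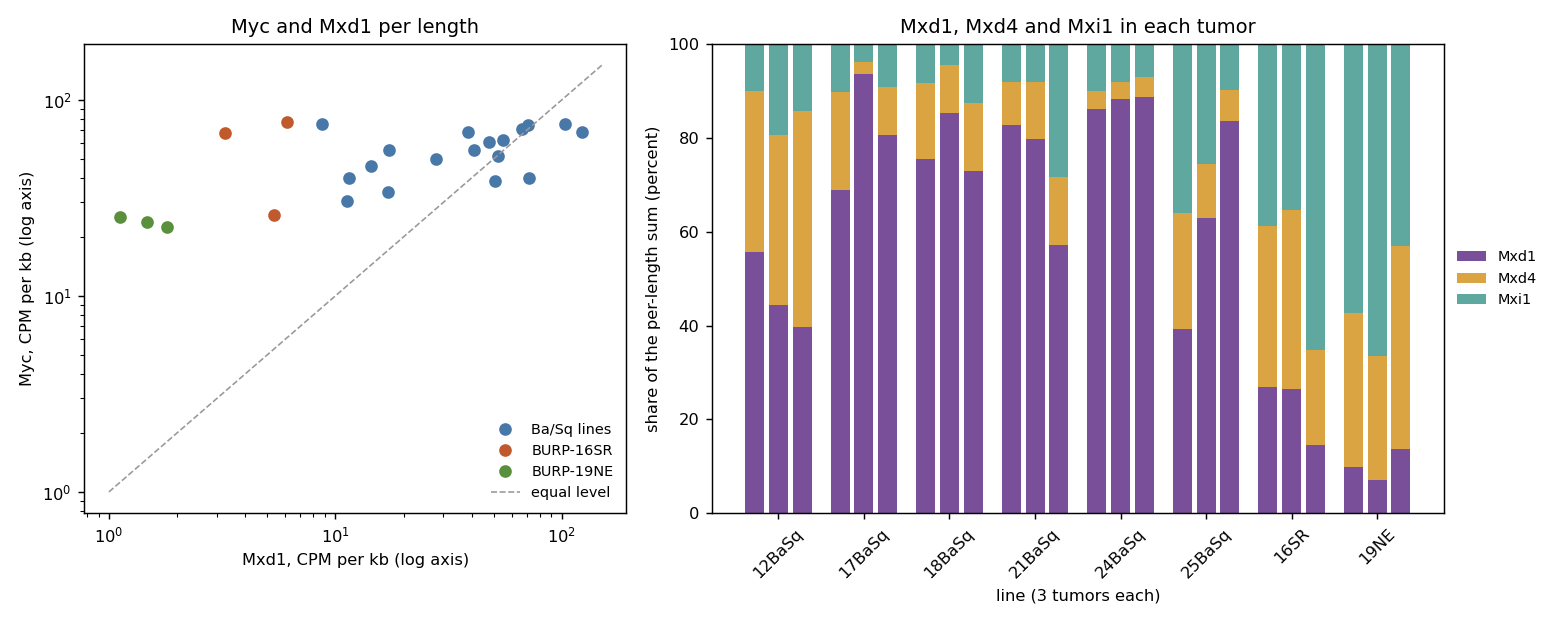
Left, Myc against Mxd1 in CPM per kb of exon in each tumor, both axes logarithmic, with a dashed line of equal level. Right, the share of Mxd1, Mxd4 and Mxi1 in their per-length sum in percent, 1 bar for each tumor in groups of 3 by line. Mxd1 is at most 13.7% of the sum in BURP-19NE and at least 39.2% in Ba/Sq.

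BURP-19NE was first compared with the 18 Ba/Sq tumors, to see which members went with the neuroendocrine-like line. Myc and Mxd1 were lower, and neither overlapped Ba/Sq. Myc averaged 64.9 ± 3.82 CPM (SD, n = 3) against 151 ± 40.8 (n = 18), a log2 fold change of -1.21 (SE 0.26, adjusted p = 0.00114), which is 2.31-fold lower. Mxd1, its antagonist, averaged 10.4 ± 2.41 CPM against 325 ± 229, a log2 fold change of -4.95 (SE 0.88, adjusted p = 1.98e-04), which is 31.0-fold lower. Adjusted p-values throughout are from edgeR's quasi-likelihood test with Benjamini-Hochberg adjustment over all genes tested, and a gene was called under 0.05. Both calls held whichever tumor was left out. Where counts were summed per line, BURP-19NE was 1 value and was assumed to vary like the 6 Ba/Sq lines. The log2 fold changes were then -4.83 for Mxd1 (adjusted p = 0.0494) and -1.21 for Myc (adjusted p = 0.114).

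Thus 2 of 7 members were called, both lower, where 33.5% of all genes tested were called, 15.5% higher and 17.9% lower. The same 2 did not overlap between the groups, as did not 18% of all genes. Mycl, with a log2 fold change of -2.02 (SE 0.78), stood at an adjusted p of 0.0505. It passed in 6 of 21 fits that left out 1 tumor, where adjusted p-values ran from 0.0266 to 0.163. The lowest was without C102-M3 (log2 fold change -1.67, adjusted p = 0.0266). Mycn, listed above by its counts, was not called at an adjusted p of 0.0596. It was called, with Mycl, without C148-M3 of BURP-18BaSq (adjusted p = 0.0452). Max (log2 fold change -0.44, 95% interval -0.86 to -0.03), Mxd4 (-0.44, interval -1.34 to 0.47) and Mxi1 (0.54, interval 0.07 to 1.0) were not called, with adjusted p-values of 0.0908, 0.462 and 0.0702. The median log2 fold change of all genes in this comparison was -0.14.

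Of the 6 other genes of the MAX and MLX network, 2 were lower in BURP-19NE and 4 were not called. Mnt averaged 17.5 ± 0.515 CPM against 43.5 ± 10.5, with a log2 fold change of -1.31 (SE 0.24, adjusted p = 2.45e-04) and no overlap. Mlx, the MAX-like partner of the glucose-sensing MLXIP and MLXIPL, had a log2 fold change of -0.65 (adjusted p = 0.0217), and 3 of the 21 fits that left out 1 tumor lost its call, with adjusted p-values up to 0.0972. Mxd3, Mga, Mlxip and Mlxipl were not called. Pvt1, the noncoding RNA gene beside Myc, ran the other way from Myc: 32.5 ± 2.72 CPM against 14.1 ± 4.23, a log2 fold change of 1.21 (SE 0.24, adjusted p = 5.17e-04), without overlap.

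Among the cofactors, the SIN3 subunit Sin3b, through which MXD proteins repress, rose in BURP-19NE by 1.20 on the log2 scale (SE 0.16, adjusted p = 6.29e-06), from 51.5 ± 10.3 to 118 ± 21.7 CPM, while Sin3a fell by 0.41 (adjusted p = 0.0407). The remaining 5 of 7 corepressor genes were not called. Of 8 coactivator genes 2 were higher, Trrap (0.84, adjusted p = 0.00151) and Ruvbl1 (0.65, adjusted p = 0.00440), both subunits of the acetyltransferase complexes that MYC recruits. Of 9 genes that set MYC protein turnover, Usp28, a deubiquitinase, was higher (0.81, adjusted p = 0.00903). Gsk3b, the kinase that marks MYC for degradation, and Usp7 were lower, by -0.88 and -0.76 on the log2 scale. The calls of Sin3a (without C80-M1 or C80-M3), Ruvbl1 (without C80-M30) and Usp28 (without C80-M1) were lost with single tumors of BURP-19NE left out. The protein itself was not measured.

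Genes listed as MYC targets were then counted. Of 30 ribosome assembly genes 11 were lower, 0 higher and 19 not called, with a median log2 fold change of -0.30 beside -0.14 for all genes. The largest was that of Nle1, whose promoter is printed above, at 4.45 ± 0.142 against 11.8 ± 2.53 CPM (log2 fold change -1.40, adjusted p = 7.48e-05), followed by Polr1b, a subunit of RNA polymerase I (-1.07, adjusted p = 0.00692). Of 28 metabolism and growth genes 12 were lower, 0 higher and 16 not called, with a median of -0.57. Tfrc, the transferrin receptor, fell by 2.16, Hk2, a hexokinase, by 1.82 and Ccnd2, a cyclin, by 1.16 on the log2 scale (adjusted p = 0.00621, 0.00361 and 0.00121).

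All 8 genes listed as repressed by MYC were called, and most were lower: 6 fell and 2 rose, with a median of -2.07. Gadd45a, a stress-induced growth arrest gene, rose by 3.81 on the log2 scale (adjusted p = 1.3e-09), from 7.15 ± 3.15 to 99.5 ± 26.9 CPM. Cdkn1b, an inhibitor of cyclin-dependent kinases, rose by 1.09 (adjusted p = 0.00210). Cdkn1c, of the same inhibitor family, Ndrg1 and Ndrg2, which are expressed in differentiated tissue, fell by 3.31, 2.80 and 2.34. The call of Ndrg2 was lost without C80-M3 or C80-M30. Of 12 proliferation genes 5 were lower and 7 not called, with a median of -0.79, and Mcm5, a subunit of the replicative helicase, fell by 1.84.

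The squamous markers moved with these results. All 8 basal and squamous marker genes, keratins and desmosome genes among them, were lower in BURP-19NE, where their summed level was 0.789 to 2.46 CPM beside 9312.53 to 23117.6 CPM in Ba/Sq. Trp63, 1 of the 8, was at 0.373 ± 0.199 CPM beside 389 ± 144. The paper's immunostaining, by contrast, found its protein, TP63, highly expressed in this line. Of 10 cornification genes 8 were lower, with sums of 13.5 to 16.2 CPM beside 277 to 7119 in Ba/Sq and 2 genes at 0 in all 3 tumors. The sum over 8 neutrophil genes was 1.89 to 3.10 CPM beside 2.02 to 96.9, with 6 of 7 tested lower and 1 at 0. Of 6 muscle genes 4 were called higher, but their sum was 534 CPM in C80-M1 and 3.16 and 8.26 CPM in the other 2 tumors, beside 1.92 to 41.03 in Ba/Sq, and none was without overlap. Their part in the levels of Mxd1, Myc and Mnt was not tested. In bulk RNA, fewer cells of a type and less RNA per cell cannot be told apart.

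**Figure D3:**
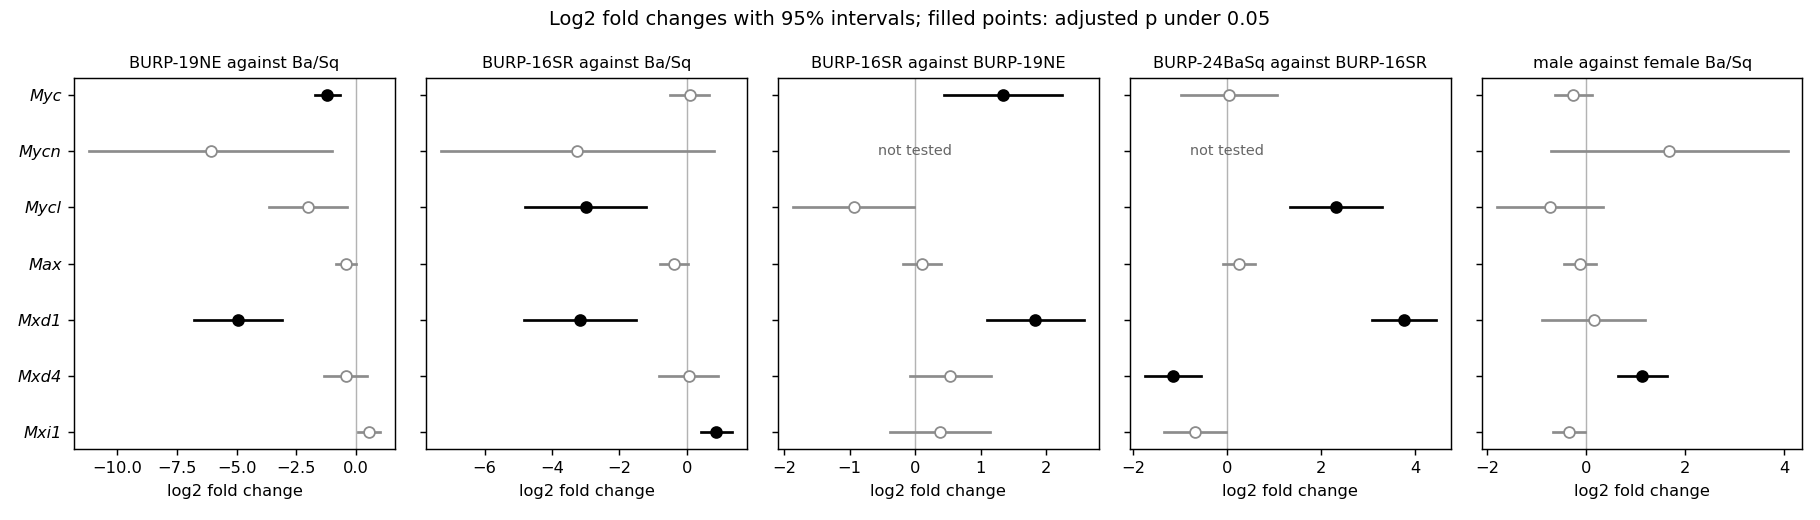
Log2 fold changes (horizontal axes) of the 7 members in 5 comparisons, with 95% intervals and filled points where the adjusted p was under 0.05. Mxd1 is called in 4 of the 5 comparisons and Mxd4 alone is called between the sexes; Mycn was not tested in the 2 comparisons between single lines.

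BURP-16SR was compared with the same 18 Ba/Sq tumors, which the comparison above shares. Mycl and Mxd1 were lower and Mxi1 was higher, while Myc was not called. Mycl averaged 0.949 ± 0.337 CPM (SD, n = 3) against 7.92 ± 8.43, a log2 fold change of -3.00 (SE 0.87, adjusted p = 0.0148), or 8.00-fold lower. Mxd1 averaged 34.7 ± 10.5 CPM against 325 ± 229, a log2 fold change of -3.18 (SE 0.80, adjusted p = 0.00600), or 9.05-fold lower. Neither overlapped Ba/Sq, as did not 11.4% of all genes. For Mxd1 the highest BURP-16SR tumor was at 43.2 CPM and the lowest Ba/Sq tumor at 62.0. For Mycl these were all but level, at 1.173 CPM from 15 counts and 1.175 CPM from 9 counts. Mxi1 averaged 69.6 ± 27.1 CPM against 38.7 ± 9.47, a log2 fold change of 0.88 (SE 0.22, adjusted p = 0.00619), with overlap. The 3 calls of 7 members stood beside 25.1% of all genes called, 13.8% higher and 11.3% lower.

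The call of Mxi1 was lost without P5 of BURP-16SR, its highest tumor (log2 fold change 0.46, adjusted p = 0.230). The call of Mycl was lost without C73-M10 (adjusted p = 0.0584) or P5 (adjusted p = 0.0739) of that line, and none of the 3 was called on counts summed per line, with BURP-16SR as 1 value, where the log2 fold changes were -3.26 for Mycl, -3.21 for Mxd1 and 0.81 for Mxi1. Myc differed by 0.09 on the log2 scale (SE 0.28, adjusted p = 0.851), with a 95% interval of -0.50 to 0.67, so that a difference of the size seen in BURP-19NE lay outside the interval. Max (-0.38, interval -0.80 to 0.04), Mxd4 (0.06, interval -0.83 to 0.94) and Mycn (-3.25, interval -7.30 to 0.80) were not called, with adjusted p-values of 0.171, 0.944 and 0.233. Of the other network genes edgeR called none of 6, with 2 at an unadjusted p under 0.05, and DESeq2 called 1. Mnt had a log2 fold change of 0.52 (adjusted p = 0.0853). Pvt1 was higher by 0.69 (adjusted p = 0.0466), a call that 14 of 21 fits without 1 tumor lost.

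The coactivator Ep400, a chromatin remodeller of the TRRAP complex, rose in BURP-16SR by 2.14 on the log2 scale (SE 0.13, adjusted p = 1.12e-10), from 209 ± 31.4 to 895 ± 168 CPM without overlap, and Trrap was called higher by 0.56 (adjusted p = 0.0412), a call that 11 of 21 fits without 1 tumor lost, with adjusted p-values up to 0.261. None of 7 corepressor and 9 turnover genes was called by edgeR, although 3 and 1 of them had an unadjusted p under 0.05, and DESeq2 called 1 and 0. Of 30 ribosome assembly genes 2 were higher, 3 lower and 25 not called (median -0.28 beside -0.03 for all genes). Of 28 metabolism and growth genes 2 were higher and 8 lower (median -0.37). E2f1, a cell cycle transcription factor, rose by 1.66 (adjusted p = 6.69e-06), and Cad, the first enzyme of pyrimidine synthesis, by 0.99 (adjusted p = 0.00307). Slc19a1, the folate carrier, fell by 1.48 (adjusted p = 7.08e-05) and Tert, the telomerase reverse transcriptase, by 1.86 (adjusted p = 0.0111). The call of Cad was lost without P5, and that of Tert without C73-M10 or P5.

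Of the 8 genes listed as repressed by MYC, Gadd45a was higher in BURP-16SR by 1.40 (adjusted p = 0.00997), Ndrg2 lower by -2.39 and Cebpa, a differentiation factor, lower by -2.10 on the log2 scale, while 5 were not called. Without P5 the log2 fold change of Gadd45a was 0.31 (adjusted p = 0.662). The call of Ndrg2 was lost without any 1 tumor of BURP-16SR, and that of Cebpa without C74-MNT or P5. Proliferation genes were lower in 5 of 12, with a median of -0.80. All 8 basal and squamous markers were lower, with sums of 0.313 to 1.29 CPM and Krt17 and Dsg3 at 0, and 8 of 10 cornification genes, with sums of 5.89 to 18.5 CPM. Trp63 was at 0.135 ± 0.121 CPM, while the paper's immunostaining found TP63 protein in some cells of this line. Of 10 fibroblast genes 5 were higher, with sums from 631 CPM to 20975 in BURP-16SR and from 241 to 10407 in Ba/Sq, and 3 of 6 endothelial genes were higher, with sums of 240.002 to 352 CPM beside 28.1 to 406. All 4 B cell genes were called higher, but their sum was 221 CPM in C73-M10 and 6.49 and 1.19 CPM in the other 2 tumors, beside 0.307 to 7.58 in Ba/Sq. Of the neuroendocrine markers, Eno2 was higher, at 16.02 ± 8.97 against 2.52 ± 1.08 CPM (log2 fold change 2.70, adjusted p = 4.95e-06), as was Snap25, at 17.3 ± 10.7 against 1.79 ± 2.40 CPM (3.41, adjusted p = 0.00268). Scg2 was called as well (3.69, adjusted p = 0.0484), a call that 19 of 21 fits lost (0.95 without P5). Their part in Mxd1, Mycl and Mxi1 was not tested.

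**Figure D4:**
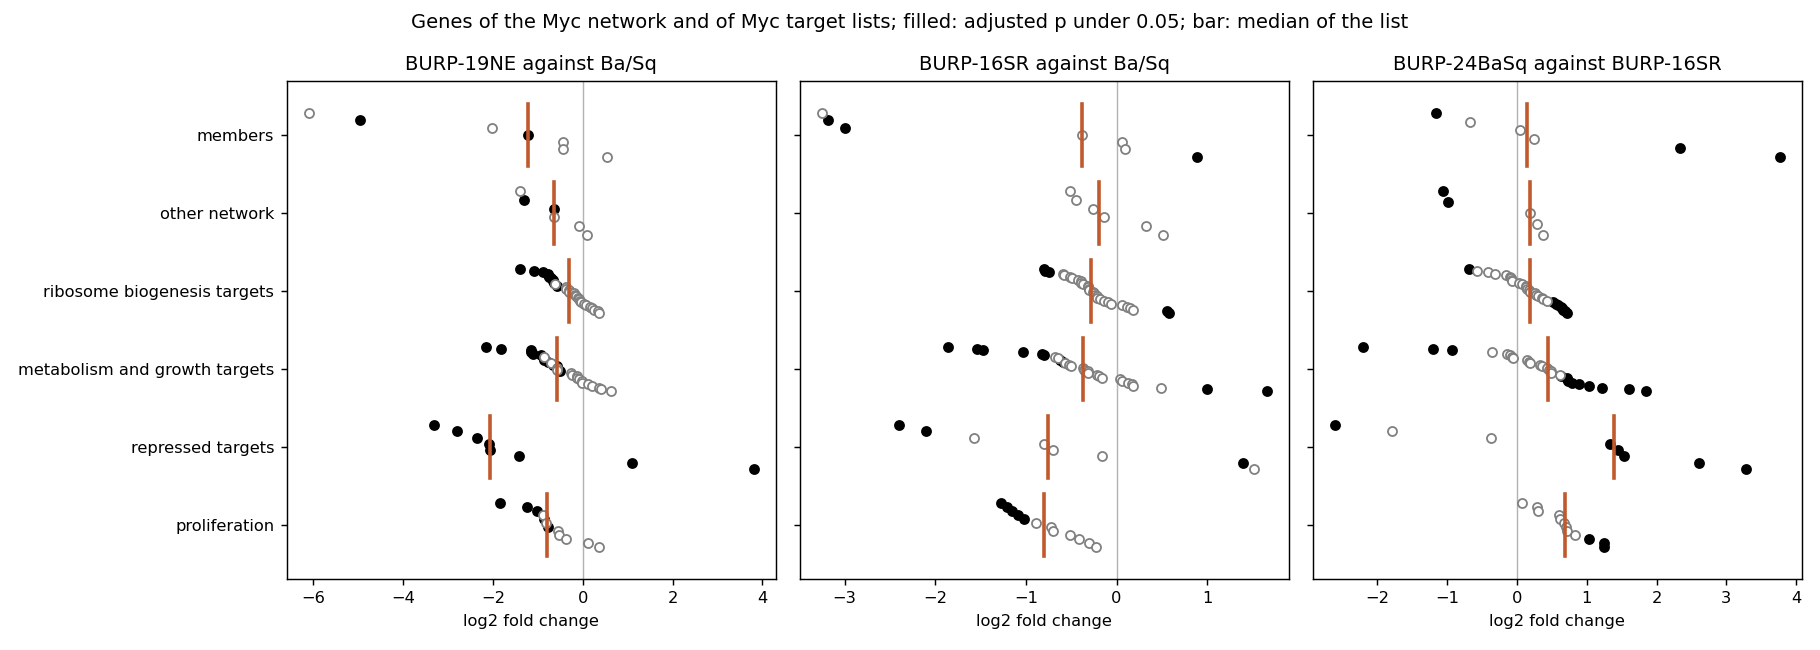
Log2 fold changes (horizontal axes) of single genes in 6 lists, in BURP-19NE and BURP-16SR against Ba/Sq and in BURP-24BaSq against BURP-16SR. Filled points had an adjusted p under 0.05 and orange bars mark the list's median. In BURP-19NE the bars of ribosome assembly and metabolism genes stand at -0.30 and -0.57, and that of repressed targets at -2.07.

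The lines outside the Ba/Sq group were also compared with each other. Myc was higher in BURP-16SR than in BURP-19NE by 1.34 on the log2 scale (SE 0.38, adjusted p = 0.0349), or 2.53-fold. The difference between the tumors of BURP-16SR was wide, and the call was lost without C73-M10 (adjusted p = 0.114) or P5 (0.0644) of that line and without any 1 tumor of BURP-19NE (0.103 to 0.115). It held without C74-MNT, the lowest tumor of BURP-16SR. Mxd1 was higher by 1.84 (SE 0.31, adjusted p = 0.00648), or 3.57-fold. These 2 of 6 members tested stood beside 34.3% of all genes called, 19.2% higher and 15.1% lower. Mycl, lower in all 3 tumors of BURP-16SR, was not called (-0.94, adjusted p = 0.102). It was 1 of 3 members without overlap, where 51.8% of all genes had none.

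Max (0.10, interval -0.19 to 0.40), Mxd4 (0.54, interval -0.08 to 1.16) and Mxi1 (0.38, interval -0.38 to 1.14) were not called between these lines, and Mycn was too low to be tested. Mnt was higher in BURP-16SR by 1.87 (SE 0.20, adjusted p = 0.00154), at 60.0 ± 13.0 against 17.5 ± 0.515 CPM. Sin3b was lower by -1.15 (adjusted p = 0.00388) and Ep400 higher by 1.91 (adjusted p = 0.00117). Ribosome assembly genes were higher in 5 and lower in 1 of 30, and metabolism and growth genes higher in 7 and lower in 3 of 28, with medians of 0.02 each beside 0.06 for all genes. Odc1, the first enzyme of polyamine synthesis and a textbook MYC target, was higher by 1.41 (adjusted p = 0.00262). Markers of other cells differed between the lines too, with 5 of 6 endothelial, 4 of 4 neutrophil genes tested and 3 of 10 fibroblast genes higher in BURP-16SR. The endothelial sum was 240.002 to 352 CPM beside 52.9 to 72.6 in BURP-19NE, and the neutrophil sum 14.2 to 29.7 beside 1.89 to 3.10. Of 6 neuroendocrine genes tested 3 were higher in BURP-16SR, Eno2 (2.64, adjusted p = 0.00602) and Snap25 among them, and 1 was lower. The part of these cells in Myc and Mxd1 was not tested.

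BURP-24BaSq and BURP-16SR are the lines on which the study tested cisplatin, and they were compared directly. BURP-24BaSq had a female donor and BURP-16SR a male one, so that sex, class and line cannot be told apart here. Mycl and Mxd1 were higher and Mxd4 was lower in BURP-24BaSq, and Myc was not called. Mxd1 was at 474, 508 and 502 CPM in BURP-24BaSq, a mean of 495 ± 18.4, and the log2 fold change was 3.76 (SE 0.29, adjusted p = 2.04e-04), or 13.6-fold. Mycl, at 6.24, 3.74 and 5.05 CPM, was 5.02-fold higher (log2 fold change 2.33, SE 0.41, adjusted p = 0.00521). Mxd4, at 25.7, 24.9 and 30.1 CPM, was 2.22-fold lower (log2 fold change -1.15, SE 0.25, adjusted p = 0.0122). That last call was lost without C81-M1 (adjusted p = 0.0579) or C81-M30 (adjusted p = 0.0554) of BURP-24BaSq.

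Of all genes tested between these 2 lines 38% were called, 17.6% higher and 20.4% lower, and 53.6% did not overlap, as did not 4 of 6 members tested. Myc was at 194, 108 and 203 CPM in BURP-24BaSq, inside the spread of BURP-16SR, with a log2 fold change of 0.05 (adjusted p = 0.934) and an interval of -0.97 to 1.07. Mnt and Mlxip were lower in BURP-24BaSq, by -1.06 (adjusted p = 0.0140) and -0.99 (adjusted p = 0.0369). The call of Mlxip was lost in 5 of 6 fits without 1 tumor, with adjusted p-values up to 0.129. Ribosome assembly genes were higher in 8 and lower in 1 of 30, with a median of 0.18. Of these calls, that of Rrs1, the lower gene, was lost in 6 of 6 fits without 1 tumor, that of Nop58 in 5, of Nop16 in 4 and of Pa2g4 in 3. Metabolism and growth genes were higher in 10 and lower in 3 of 28, with a median of 0.45 beside -0.05 for all genes. Among them Tfrc was higher by 1.85 and E2f1 lower by -2.20. Of the repressed targets 5 of 8 were higher, led by Ndrg2 at 3.27 and Ndrg1 at 2.61, and 1, Cdkn1c, was lower at -2.60, a call lost without C81-M1 or C81-M30. All 8 basal and squamous markers and 8 of 10 cornification genes were higher in BURP-24BaSq, while 6 of 6 endothelial genes and 3 of 10 fibroblast genes were lower, as were Eno2 (-3.41, adjusted p = 0.00233) and Snap25 (-5.73, adjusted p = 0.00149). Their part in Mxd1, Mycl and Mxd4 was not tested.

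Over all 8 lines each of the 7 members was called by an F test, where 76.7% of all genes were. The adjusted p ran from 1.17e-05 for Mxd1 to 0.0104 for Myc. Among the 28 pairs of lines, Mxd1 was called in 15, Mxd4 in 11, Mycl in 9, Mycn in 8, Myc in 6, and Max and Mxi1 in 5 each, while 25% of all tests of a gene in a pair were called. The order of mean Mxd1 levels was BURP-24BaSq, 17BaSq, 18BaSq, 21BaSq, 25BaSq, 12BaSq, 16SR and 19NE. Only the last neighbours in it differed beyond their spread (BURP-16SR against BURP-19NE, adjusted p = 0.0348 in the fit over all lines). In the order of each other member no neighbouring lines differed. Myc was highest on average in BURP-24BaSq, at 168 ± 52.2 CPM, and the next 5 lines followed down to 153 ± 50.1 CPM in BURP-18BaSq, then 94.5 ± 12.6 CPM in BURP-12BaSq and 64.9 CPM in BURP-19NE.

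Single Ba/Sq lines were set against the mean of the other 5 of that class. BURP-18BaSq was called for Mycn, which was 22.1-fold higher than that mean (log2 fold change 4.46, SE 0.72, adjusted p = 1.47e-04). Against BURP-21BaSq alone, the next line by mean level, Mycn was not called (adjusted p = 0.193). The 3 tumors of BURP-18BaSq were far apart, and P4, at 0.603 CPM, lay below each tumor of BURP-21BaSq (2.01 to 4.59 CPM). Without C148-M3 the log2 fold change against the mean of the other lines was 2.87 (adjusted p = 0.0222). With any other single tumor left out the call held as well, at up to 5.24. It was also higher in Mxd4 (0.97, adjusted p = 0.00237), at 92.6, 105 and 69.5 CPM. Of all genes, 30.5% were called in this line.

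BURP-12BaSq was the line with most members called, where 21.7% of all genes were. Mxd4, at 89.0, 78.0 and 113 CPM, was higher by 1.06 (adjusted p = 0.00196). Mxd1, at 120, 79.6 and 81.5 CPM, was lower by -1.87 (adjusted p = 0.0161), a call lost without C47-M30 (adjusted p = 0.0890) or C47-M3 (adjusted p = 0.0893). Myc, at 92.3, 83.1 and 108 CPM, was lower by -0.76 (adjusted p = 0.0473), and 15 of 24 fits that left out 1 tumor of any line lost that call, with adjusted p-values up to 0.194.

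In BURP-24BaSq, where 17% of all genes were called, Mxd4 was lower by -1.16 (adjusted p = 0.00413). In BURP-21BaSq, with 5.83% of genes called, Max was higher by 0.52 (adjusted p = 0.0393), at 99.4, 93.3 and 89.4 CPM. These were the highest 3 Max levels of all, but 12 of 24 fits without 1 tumor lost the call. The call held without the libraries C102-M1, in which Max was 85.0 CPM, and C102-M30 (0.59, adjusted p = 0.00526). In BURP-25BaSq, with 5.2% of genes called, Mycl was higher by 1.77 (adjusted p = 0.0311), at 39.2, 12.8 and 3.41 CPM. That call rested on C102-M3, without which the log2 fold change was 0.50 (adjusted p = 0.789), and it was lost without C102-M30 as well (adjusted p = 0.0596). Without both C102-M1 and C102-M30 only C102-M3 was left in the line, and its log2 fold change of 2.80 (adjusted p = 0.00201) assumes that this tumor varies like those of the other lines. In BURP-17BaSq, where 12.9% of genes were called, no member was called by edgeR or DESeq2, and 0 of 7 had an unadjusted p under 0.05.

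The male and female Ba/Sq lines, 9 tumors each, were compared last. Mxd4 alone was called, where 5.46% of all genes were, with 2.99% of all genes called higher in males. It ranged from 28.4 to 113 CPM in tumors of male lines and from 24.9 to 52.0 CPM in those of female lines, so that the sexes overlapped; 0.463% of all genes did not. The means were 77.6 ± 26.4 and 35.7 ± 10.8 CPM, a log2 fold change of 1.13 (SE 0.24, adjusted p = 0.0131). The call was lost without the 3 tumors of BURP-18BaSq (adjusted p = 0.0537) or of BURP-24BaSq (adjusted p = 0.0790), and on counts summed per line, with 3 lines a sex. Myc differed by -0.26 (interval -0.64 to 0.12, adjusted p = 0.420). No ribosome assembly, metabolism or proliferation gene was called between the sexes by edgeR, with 2 of 30, 4 of 28 and 5 of 12 at an unadjusted p under 0.05. DESeq2 called 1 of each list. Of the 8 genes listed as repressed by MYC 4 were called, Cdkn1b (0.66, adjusted p = 0.0292) and Cebpa (1.18, adjusted p = 0.0376) higher and Ndrg1 (-1.25, adjusted p = 0.0391) and Ndrg2 (-1.64, adjusted p = 0.0140) lower in males. Fits that left out 1 tumor lost the call of Cdkn1b in 5 of 18, of Cebpa in 10 and of Ndrg1 in 12, and that of Ndrg2 in 0, although it was lost without BURP-24BaSq (adjusted p = 0.0652). Of the squamous markers, the cornification genes Flg (-2.52, adjusted p = 0.0194) and Tgm1 (-2.05, adjusted p = 0.0197) were lower in males and the desmosome gene Dsc3 higher (1.88, adjusted p = 0.00848). Without the 3 tumors of BURP-24BaSq the calls of Flg and Tgm1 were lost, as was that of Flg without BURP-12BaSq and that of Tgm1 without BURP-25BaSq or without C102-M1 and C102-M30. Their part in Mxd4 was not tested.

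Within Ba/Sq, Mxd1 and the squamous markers were set side by side tumor by tumor, as a description. Over the 18 tumors, 3 from each of 6 donors, log2 Mxd1 correlated with the summed cornification genes at r = 0.377, and at 0.739 once each line's mean was taken out. With the basal and squamous genes the values were 0.661 and 0.709. Myc, in turn, gave 0.531 and 0.648 for cornification genes and 0.630 and 0.644 for basal and squamous genes. Thus Myc and Mxd1 were both higher where these markers were, though not they alone. Max gave 0.387 and 0.555 for cornification genes and 0.162 and 0.644 for basal and squamous genes. Within lines, Mxd1 gave -0.588 with the summed fibroblast genes and -0.494 with macrophage genes, and Myc gave -0.304 and -0.5. The part of these other cells was not tested. Myc and Mxd1 correlated with each other at 0.460 in Ba/Sq and at 0.617 over all 24 tumors. Mxd4 correlated with the proliferation genes at -0.644, and at -0.481 within lines. Without C102-M1 and C102-M30, over 16 tumors, Mxd1 gave 0.399 for cornification genes and 0.648 for basal and squamous genes, and Myc gave 0.542 and 0.693. Within the 5 lines that then held 3 tumors, 15 in all, the values were 0.857 and 0.670 for Mxd1 and 0.729 and 0.902 for Myc. For Max they were 0.660 and 0.473. With fibroblast and macrophage genes they were -0.762 and -0.849 for Mxd1 and -0.297 and -0.446 for Myc. Myc and Mxd1 then correlated at 0.485 in Ba/Sq, and Mxd4 with the proliferation genes at -0.608, and at -0.770 within lines.

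The genes whose levels were most like those of each member were taken from 21383 genes by Pearson's r of log2 CPM over the 24 tumors, in which tumors of 1 line share a donor. For Mxd1 the nearest was Gm44292, the gene model that overlaps it (0.979), then 6430548M08Rik (0.947) and Klc3, a kinesin light chain (0.941). For Mycn it was Alk, a receptor tyrosine kinase (0.869), followed by Spsb4 (0.838) and Setd3 (0.833). For Mycl the nearest were BB218582 (0.875), the keratin gene Krt77 (0.872) and the interleukin receptor gene Il17re (0.863). Myc was most like Cpne5 (0.831), Arhgap27 (0.826) and Usf3 (0.814), and Max most like Lypd6 (0.874), Rab10 (0.845) and Adck1 (0.841). Mxd4 was most like Zfp619 (0.863), Mogs (0.855) and Gpr27 (0.821). The nearest genes to Mxi1, Lrrc58 (0.811), Vapa (0.810) and Lgr6 (0.810), were at 0.570, 0.606 and 0.757 within Ba/Sq. Without C102-M1 and C102-M30, 14 of these 21 genes stayed among the 3 nearest of their member, and the 21 values of r ran from 0.810 to 0.979.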

How the data were processed

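Bulk RNA of 24 tumors was sequenced by the authors after depletion of ribosomal RNA. Per the submitters' processing notes CASAVA 1.8.2, STAR 2.6.0a and RSEM 1.3.1 were used with GRCm38, and the authors' methods name the GENCODE M16 annotation. The deposited values are RSEM estimated counts per gene, not normalized, of which 12.5% were not whole. The strand setting of RSEM is not given in the sources used here. Counts were rounded. Symbols and positions came from GENCODE M21 on GRCm38, which matched 99.6% of identifiers.

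R 4.3.3 was used with edgeR 4.0.16 (TMM, filterByExpr, glmQLFit and glmQLFTest), each comparison fitted on its own groups, and all lines in 1 fit for the tests over lines. Fits were tested on simulated data. Log2 CPM for correlations used a prior count of 2. A gene was called at a Benjamini-Hochberg adjusted p under 0.05.

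All 7 members and 6 other network genes were named, from each other list up to 3 called genes a direction, by size of change, the 3 genes most like each member, and Pvt1 with up to 3 genes within 500 kb of each Myc gene. Neuroendocrine and cell type markers were named to check labels. A further marker is not reported here. The members and lists were chosen with earlier results of these data known. Alternatives were DESeq2 1.42.0, its size factors, no filter, a minimum of 10 counts, library sizes without Gm26917 and CT010467.1, all tumors in 1 fit, omission of C102-M1 and C102-M30, each tumor left out, and counts summed per line. Libraries of 24 tumors, of 9295708 counts or more, set the floor of 3 counts, which covers counting error only. Promoter sequences are RefSeq's. Myc has no entry in that table.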

Additional observations from a re-analysis of the deposited data

How the results depend on the processing

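Counts of called members depended on the fit. In BURP-19NE against Ba/Sq, 2 members were called, 5 by DESeq2, 4 with all 24 tumors in 1 fit and 1 on counts summed per line, and from 2 to 4 with 1 tumor left out. For DESeq2 and the fit of 24 tumors the share of all genes called is not given. These counts therefore describe the fits and are not a result about the members. In BURP-16SR against Ba/Sq 3 were called, 0 on counts summed per line and from 1 to 3 with 1 tumor left out, the lowest without P5 of BURP-16SR. In BURP-16SR against BURP-19NE the count ran from 1 to 2 and in BURP-24BaSq against BURP-16SR from 2 to 4. Between the sexes the 1 call became 0 on counts summed per line and without BURP-18BaSq or BURP-24BaSq. The summed counts, the omission of single lines and the correlations without C102-M1 and C102-M30 were chosen after seeing the data, except the summed counts for the sexes. Summing leaves 1 value a line; the cause of the other changes was not tested.

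Among the members and the other network genes, directions turned only for genes that were not called. Myc in BURP-16SR against Ba/Sq was -0.0042 with no filter and -0.031 on summed counts (from -0.22 to 0.43 with 1 tumor left out), and in BURP-24BaSq against BURP-16SR it ran from -0.29 to 0.36. Mxd4 in BURP-16SR against Ba/Sq was -0.054 with no filter, -0.12 without C102-M1 and C102-M30, -0.032 in the fit of 24 tumors and -0.11 on summed counts (-0.084 to 0.18 with 1 tumor left out). Mlxipl in that comparison ran from -0.68 to 0.12, and Mxd3 in BURP-16SR against BURP-19NE from -0.15 to 0.43. Between the sexes, Mycn was -0.13 by DESeq2 and -2.24 without BURP-18BaSq (-0.15 to 2.03 with 1 tumor left out), Mycl 0.092 without BURP-25BaSq, Max 0.090 without BURP-21BaSq, and Mxd1 -0.20, -0.13 and -0.10 without BURP-18BaSq, BURP-17BaSq and BURP-25BaSq (-0.15 to 0.28 with 1 tumor left out).

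All genes called fell from 7023 to 3830 with at least 10 counts in every tumor and to 1087 on summed counts in BURP-19NE, and from 5276 to 2889 and 841 in BURP-16SR. Between the sexes 979 became 2072 by DESeq2, 1789 in the fit of 24 tumors, 599 without C102-M1 and C102-M30, 414 with a log2 fold change above 1, from 406 to 2192 without 1 line, and 0 on summed counts. No paired analysis was possible because the labels give no replicate number: the tags M3 or P4 recur across lines and the tags C80 or C102 only within a line, and neither is said to mark tumors of 1 mouse. The paper writes a passage as P with a number and took tumors over a range of passages. Tags such as P4 may thus give the passage, but the labels do not say so. Passage may differ between tumors of 1 line and was not tested.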
